A study of Mus musculus with 8 samples.

Results

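The cyclins of types A, B, D and E, the cyclin-dependent kinases (CDKs), the CDK inhibitors and the E2F transcription factors were followed by RNA-seq in murine embryonic stem cells (ESC) before and after their differentiation. The genes were chosen by name: protein-coding genes of the count table whose symbol is that of an A-, B-, D- or E-type cyclin, a numbered CDK, a Cdkn1, Cdkn2 or Cdkn3 gene or a numbered E2F, with Cdkn1c left out. The rule found 43 genes of the 32567 in the table. Of these, 41 passed the expression limit, an average log2 CPM (counts per 1000000 counts of the library, here scaled by TMM factors, which correct for library composition) over the 4 libraries above 0, as did 15492 genes in all. The 2 that did not pass were Ccnb3 and Cdk15, which lay between 0.0357 and 0.199 CPM and between 0.219 and 0.629 CPM.

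The RNA was taken from 4 cultures: wild-type parental ESC, ESC homozygous for the targeted Hdh ex4/5 null allele of the huntingtin gene (Htt-null), and embryoid-body-differentiated cells (RA-DIFF) labelled with each of these genotypes. Wild-type cells carry no targeted Htt allele, and each genotype is represented by 1 line. ESC were grown on irradiated embryonic fibroblasts or gelatin, with leukemia inhibitory factor in the medium, and were taken off the feeder cells for 4 passages before differentiation. Embryoid bodies were kept for 8 days with 5 µM retinoic acid (RA) from day 4, and RNA was taken 2 h after the bodies had been dissociated with trypsin and plated. Each condition has 1 library, so no difference has a replicate check and no p-value is given. A gene is called higher or lower when its log2 ratio of CPM is past 0.75 in that direction and its expression passes the limit. Intervals given beside a ratio are 95% counting intervals. They cover counting error only and say nothing of the spread between cultures.

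The library totals ran from 63617410 to 110569127 counts, and the 43 genes took 0.364% and 0.399% of them in Htt-null and wild-type ESC and 0.574% and 0.520% in RA-DIFF labelled Htt-null and wild-type. The targeted gene went with its label in ESC, at 111 CPM of Htt in Htt-null and 166 in wild-type, but not in RA-DIFF, at 98.7 CPM in the library labelled Htt-null and 73.3 in the library labelled wild-type. In the supplementary expression table of the study the values printed for the RA-DIFF genotypes are those of the deposited columns with the labels exchanged, and those for ESC are not exchanged. The RA-DIFF libraries are therefore named by their labels. With the labels exchanged, every difference between the RA-DIFF libraries changes sign at the same size. Markers of the stages went with the stage labels: the 10 pluripotency genes summed to 5089 and 5932 CPM in Htt-null and wild-type ESC and to 229.7 and 277.2 CPM in RA-DIFF, where Sox2, which neural progenitors also express, made up 212 and 213 CPM. All 10 were lower in all 4 pairs, and all 9 neural progenitor genes were called higher in each RA-DIFF library than in each ESC library. In such bulk samples, fewer cells of a type and less RNA per cell cannot be told apart.

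Progress through the cell cycle is driven by CDKs, kinases that are active only when bound to a cyclin. D-type cyclins with Cdk4 or Cdk6 respond to growth signals in G1 and, with E-type cyclins and Cdk2, phosphorylate the retinoblastoma protein, which releases E2F factors to transcribe the genes of DNA replication. A-type cyclins act in S phase and G2, and B-type cyclins with Cdk1 drive mitosis. The INK4 proteins (Cdkn2a to Cdkn2d) inhibit Cdk4 and Cdk6, and the CIP/KIP proteins (Cdkn1a, Cdkn1b) bind cyclin-CDK complexes more broadly. Mouse ESC are known for a short G1 phase, and lengthening of G1 accompanies their differentiation.

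Between the stages, 9 of the 41 genes were higher by the limit in each RA-DIFF library than in each ESC library: Ccnd2, Ccne2, Cdk4, Cdk5, Cdk6, Cdk14, Cdk17, Cdkn2c and Cdkn2d. The 4 that were lower in all 4 pairs of libraries were Ccne1, Ccnb2, Cdk12 and Cdk18. This reading does not depend on which RA-DIFF label is right. Of all 15492 genes, 27.4% were higher in all 4 pairs and 20.1% lower, while the 9 and 4 genes are 21.95% and 9.76% of the 41, so neither share is above that of the whole table. Nearest to the limit were Ccnb2 and Cdk12 inside it, with log2 ratios of -0.75 and -0.76 in their weakest pair, and Cdkn1b outside it, at 0.74 in its weakest pair. With a limit of 1 in place of 0.75, 6 genes stayed higher and 2 lower.

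Pair by pair as labelled, 10 of the 41 genes were higher and 10 lower in RA-DIFF labelled wild-type than in wild-type ESC, that is 24.4% in each direction, against 33.9% and 26.1% of all genes. In RA-DIFF labelled Htt-null against Htt-null ESC, 18 were higher and 5 lower, 43.9% and 12.2%, against 34.3% and 24.8%. The study also required a p-value below 0.05 from edgeR at an assumed dispersion of 0.1, without naming the test. With edgeR's exact test at this dispersion added, 6 and 9 genes kept their calls, among them Ccnd2, Ccne1, Cdk14, Cdk18 and Cdkn2c in both labels. The median log2 ratio of the 41 genes was 0.27 and 0.53, that of all genes tested 0.12 and 0.17. These counts depend on the labels of RA-DIFF. With the labels exchanged, 11 genes were higher and 6 lower than in wild-type ESC, against 34.4% and 25.2% of all genes, and 13 were higher and 7 lower than in Htt-null ESC, against 33.6% and 25.5%. The medians were then 0.34 and 0.23. The 11 genes with a call that depends on the labels were Ccna1, Ccnd1, Cdk1, Cdk7, Cdkn1a, Cdkn1b, Cdkn2a, Cdkn2b, E2f4, E2f6 and E2f8. Levels from here on are given for wild-type ESC, Htt-null ESC, RA-DIFF labelled wild-type and RA-DIFF labelled Htt-null, in this order.

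**Figure D1:**
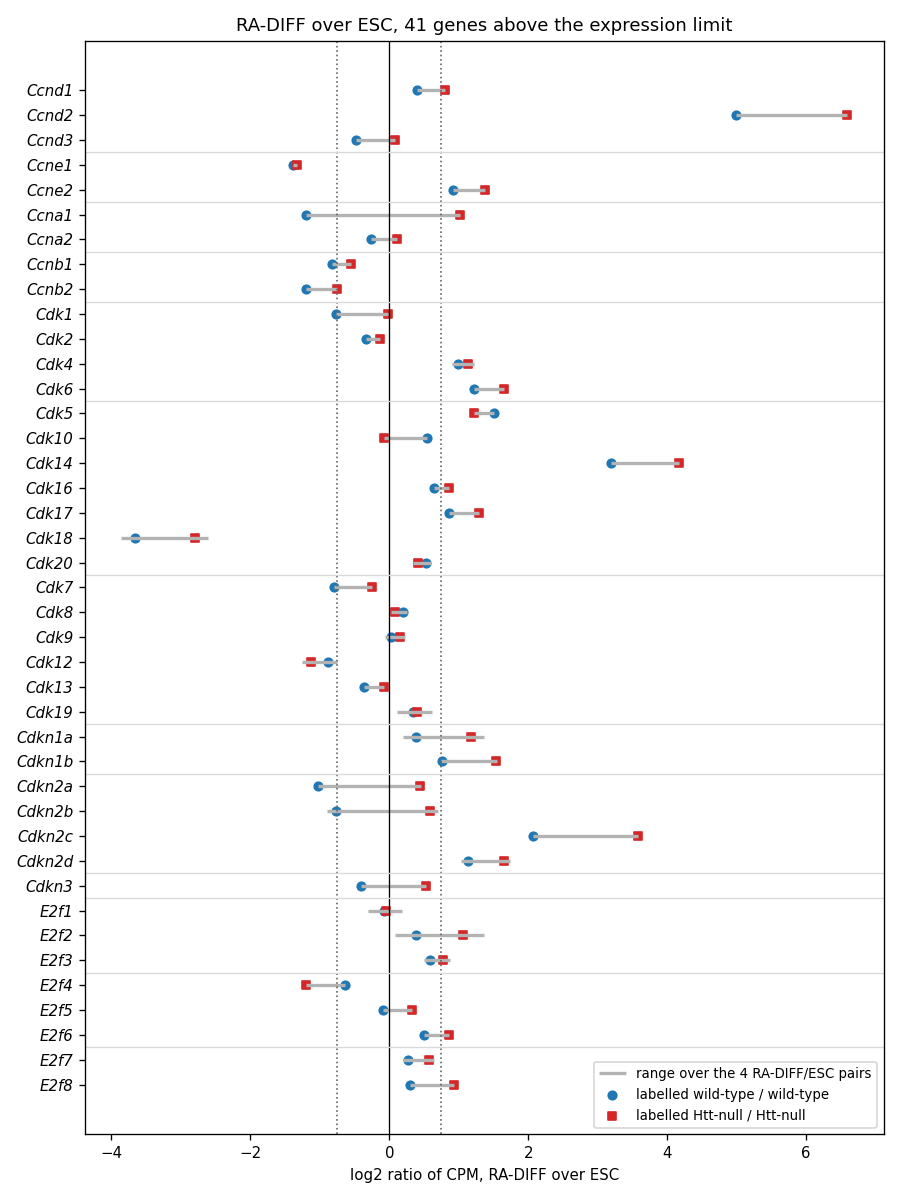
Log2 ratio of CPM, RA-DIFF over ESC, of the 41 genes above the expression limit. Blue circles are RA-DIFF labelled wild-type over wild-type ESC, red squares RA-DIFF labelled Htt-null over Htt-null ESC, grey lines the range over all 4 pairs of libraries and dotted lines the limits of 0.75. Ccnd2 lies farthest to the right, between 4.99 and 6.59, and Cdk18 farthest to the left.

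Among the D-type cyclins, Ccnd2 rose most with differentiation. Ccnd2 (chromosome 6, 127125162 to 127152193, minus strand, GRCm38) was at 31.7, 15.2, 1009.5 and 1467 CPM, which is 31.9-fold higher in RA-DIFF labelled wild-type and 96.6-fold higher in RA-DIFF labelled Htt-null than in ESC of the same label. Both RA-DIFF libraries lay far above both ESC libraries, and 95.6% and 98.0% of the genes tested had a lower ratio. Ccnd1, the D-type cyclin of many growth-factor responses, was at 158, 139.6, 208 and 243 CPM, a log2 ratio of 0.39 in the wild-type label and 0.80 in the Htt-null label; only the second is past the limit, and it is not when library size alone is used for scaling (0.73). Ccnd3 was at 164, 128, 117 and 136 CPM and was not called in either comparison, with log2 ratios of -0.48 and 0.08.

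The make-up of the D-type cyclins turned over. To compare genes, CPM was divided by the length of the union of a gene's exons. On this scale Ccnd1 held 60.4% and 64.6% of the summed D-type cyclin level in wild-type and Htt-null ESC, Ccnd3 33.5% and 31.9%, and Ccnd2 6.05% and 3.51%. In RA-DIFF labelled wild-type and Htt-null, Ccnd2 held 65.1% and 69.9%, Ccnd1 26.8% and 23.1%, and Ccnd3 8.12% and 6.95%. The summed level rose from 55.7 and 45.9 to 165 and 223 CPM per kb. Dividing by the longest transcript instead puts Ccnd1 and Ccnd3 nearly level in ESC, at 47.2% and 47.3% in wild-type, and leaves Ccnd2 at 65.0% and 69.8% in RA-DIFF.

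The E-type cyclins, which bind Cdk2 at the start of S phase, moved in opposite directions. Ccne1 (chromosome 7, 38097984 to 38107534, minus strand) was at 144, 143, 54.9 and 57.0 CPM and fell by 1.39 and 1.33 on the log2 scale, to a nearly equal level in both labels at each stage. Ccne2 was at 27.9, 24.6, 52.9 and 63.6 CPM and rose by 0.92 and 1.37. Per length, Ccne1 went from 87.1% and 88.4% of the E-type cyclin level in wild-type and Htt-null ESC to 57.7% and 54.1% in RA-DIFF, and the summed level fell from 62.0 and 60.9 to 35.8 and 39.6 CPM per kb. Ccne2 shares part of its locus with Ints8, on the opposite strand.

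**Figure D2:**
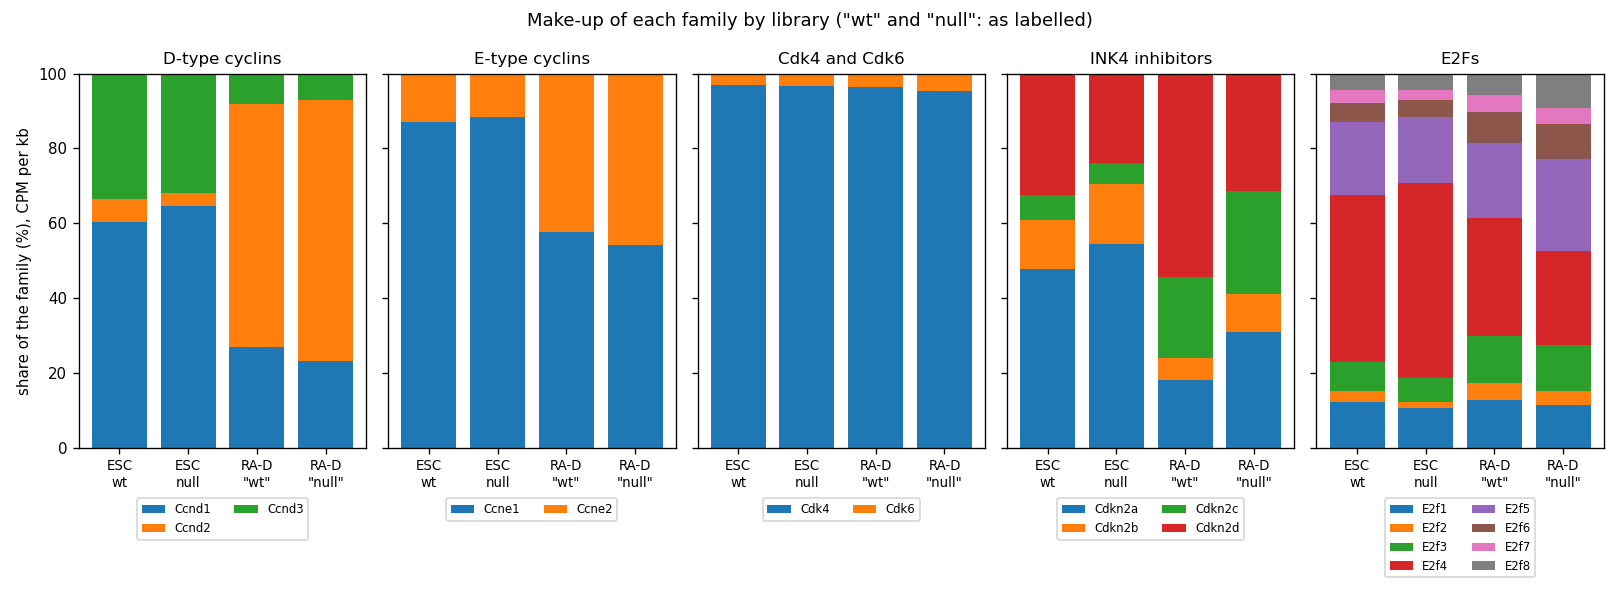
Share of each gene in the summed level of its family, as TMM-scaled CPM per kb of exon, in percent of the family and from 0 to 100, for the 4 libraries as labelled. Ccnd2 (orange, first panel) goes from under 7% in ESC to over 65% of the D-type cyclins in RA-DIFF, Ccne2 gains on Ccne1, Cdk6 stays under 5% beside Cdk4, Cdkn2c and Cdkn2d gain on Cdkn2a, and E2f4 loses share among the E2Fs.

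The A-type cyclins differed in level and in pattern. Ccna2, the A-type cyclin of dividing somatic cells, was at 345, 287, 287 and 311 CPM and was not called in any comparison. Ccna1, best known from male germ cells, was low, at 3.38, 2.30, 1.46 and 4.66 CPM. It was called in opposite directions in the comparisons with RA, at -1.19 (95% counting interval -1.49 to -0.93) in the wild-type label and 1.01 (0.75 to 1.295) in the Htt-null label.

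Among the genes of mitosis, Ccnb2 was lower after differentiation in both labels and Ccnb1 and Cdk1 in the wild-type label. Ccnb2 was at 236, 199, 102 and 118 CPM, log2 ratios of -1.20 and -0.75. Ccnb1 was at 324, 276, 183 and 187 CPM and was called lower in the wild-type label only, at -0.82 against -0.56. Cdk1, the kinase of both, was at 327, 258, 191 and 255 CPM, a log2 ratio of -0.77 in the wild-type label and -0.02 in the Htt-null label. Scaling by library size alone puts the ratio of Cdk1 in the wild-type label inside the limit, at -0.73. Whether these ratios differ between the lines was not tested, as 1 library per condition allows no test.

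Upstream sequences are shown for these mitotic genes, as all 3 were called lower in the wild-type label and B-type cyclin and Cdk1 promoters are textbook examples of CCAAT-box promoters. RefSeq promoter sequences (GRCm38.p6) were found for 34 of the 43 genes, as 41 promoters, and the 250 bases before the start site were searched on both strands. CCAAT was present in 43.9% of the 41 promoters and in 33.8% of all 32851, the cell cycle homology region (CHR, read as TTTGAA and, in its other form, as TTCGAA) in 19.5% and 17.1%, an E2F site (TTTCGCGC, TTTGGCGC or TTTCCCGC) in 12.2% and 1.53%, and a GC box (GGGCGG) in 61.0% and 32.7%. The 32851 promoters were not matched to the 41 for expression or base composition, so these shares are not like for like. The 5 genes with such an E2F site were Cdk1, Cdk2, Cdkn2a, E2f3 and E2f7. Ccnb2 has CCAAT 3 times within 87 bases of its start, at -87, -54 and -21, and a CHR at -167. Cdk1 has CCAAT on the opposite strand at -208, -80 and -48, an E2F site at -131 and CHRs at -71 and -15, and Ccnb1 has CCAAT at -99 and -67. A match of these letters is a description and not a bound site. In the sequences, capitals mark the CCAAT (which reads ATTGG on the opposite strand), CHR and E2F letters; bases inside the deposited gene, which hold the sites of Ccnb1 at -67 and Cdk1 at -15, are not shown.
Ccnb2, chr9:70421555-70421804, minus strand: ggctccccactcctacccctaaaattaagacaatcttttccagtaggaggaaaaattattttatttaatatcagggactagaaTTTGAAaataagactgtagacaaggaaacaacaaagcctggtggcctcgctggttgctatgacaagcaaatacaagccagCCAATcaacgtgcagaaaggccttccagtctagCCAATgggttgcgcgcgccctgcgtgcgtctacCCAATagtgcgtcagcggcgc
Cdk1, chr10:69352939-69353162, minus strand: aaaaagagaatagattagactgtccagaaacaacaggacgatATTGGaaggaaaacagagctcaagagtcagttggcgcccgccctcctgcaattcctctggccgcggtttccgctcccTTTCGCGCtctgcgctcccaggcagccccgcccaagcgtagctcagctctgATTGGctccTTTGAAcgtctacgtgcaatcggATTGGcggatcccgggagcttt
Ccnb1, chr13:100786571-100786736, minus strand: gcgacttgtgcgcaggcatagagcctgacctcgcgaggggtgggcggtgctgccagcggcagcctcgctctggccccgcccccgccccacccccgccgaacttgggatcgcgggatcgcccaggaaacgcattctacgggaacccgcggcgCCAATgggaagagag

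**Figure D3:**
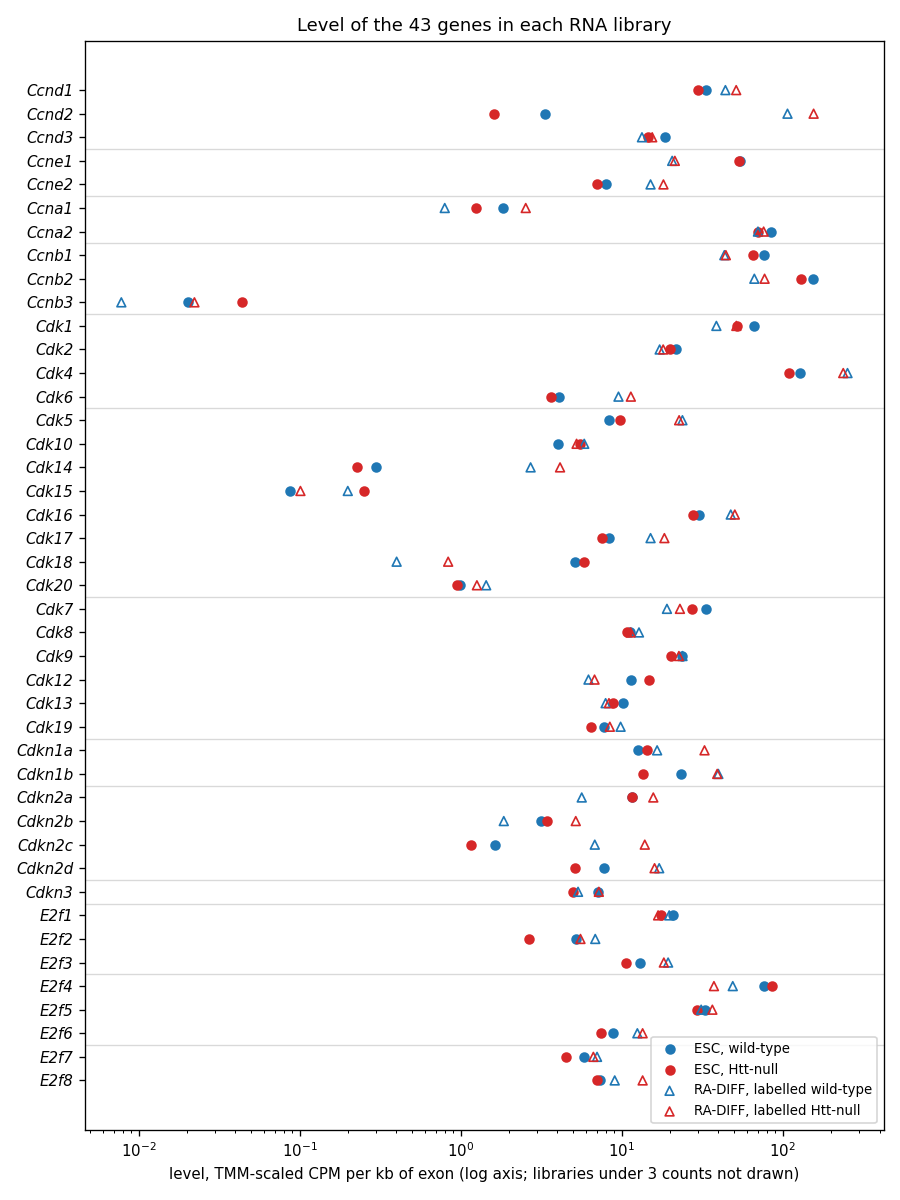
Level of each of the 43 genes in each RNA library, as TMM-scaled CPM per kb of exon on a log axis; filled circles are ESC, open triangles RA-DIFF, blue wild-type and red Htt-null as labelled. Cdk4 in every library, Ccnb2 in ESC and Ccnd2 in RA-DIFF lie above 100 CPM per kb, and Ccnb3 is the lowest in each library.

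Of the other kinases of the cycle, Cdk4 and Cdk6, the partners of the D-type cyclins, were higher in RA-DIFF. Cdk4 was at 415, 354, 822 and 774 CPM, 1.98-fold and 2.19-fold higher in the wild-type and Htt-null labels. Cdk6 was at 57.5, 50.8, 134 and 159.8 CPM, 2.33-fold and 3.14-fold higher. Per length Cdk4 kept between 95.4% and 96.9% of their summed level in every library. Cdk2, the partner of cyclins E and A, was at 135, 124, 107 and 113 CPM and was not called. Reads of Cdk4 and of Tspan31, which overlaps it on the opposite strand, depend on the strand setting of the counting.

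Among the CDKs with roles outside the cycle, 3 of 7 tested were higher in all 4 pairs, where 27.4% of all genes were, a count too small to set against that share. Cdk14, a membrane-associated kinase of Wnt signalling, was at 5.60, 4.32, 51.4 and 78.3 CPM, 9.14-fold and 18.03-fold higher. Cdk5, the neuronal CDK, was at 18.2, 21.2, 51.8 and 49.4 CPM, and Cdk17 was at 50.8, 46.2, 92.4 and 113 CPM. Cdk18 (chromosome 1, 132112237 to 132139684, minus strand) had the largest fall of the 41 genes, from 24.4 and 27.99 CPM in ESC to 1.91 and 3.99 CPM in RA-DIFF, log2 ratios of -3.66 and -2.80. Of the rest, Cdk16 was called higher in the Htt-null label (0.86) but not in the wild-type label (0.65), and Cdk10 and Cdk20 were not called.

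Of the 6 CDKs of transcription, 2 were lower in the wild-type label, 1 in the Htt-null label and none higher, where 26.1% and 24.8% of all genes were lower. Cdk12, an RNA polymerase II kinase, was at 135, 174, 73.1 and 79.7 CPM and was lower in all 4 pairs. Cdk7, the CDK-activating kinase, was called lower in the wild-type label only (-0.80 against -0.25). Cdk8, Cdk9, Cdk13 and Cdk19 were not called, with log2 ratios between -0.37 and 0.39.

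Of the 7 inhibitors, 3 were higher and 2 lower in RA-DIFF in the wild-type label, and 4 were higher and none lower in the Htt-null label, against the 33.9% and 26.1% and the 34.3% and 24.8% of all genes. With the RA-DIFF labels exchanged, 3 were higher and none lower than in wild-type ESC, and 3 were higher and 2 lower than in Htt-null ESC. Cdkn1b (p27) was at 107, 62.0, 182 and 179 CPM, and rose by 0.76 and 1.53; the first call is lost when RLE factors are used for scaling. Cdkn1a (p21), a p53 target, was at 45.2, 51.5, 59.1 and 116 CPM and was called higher only in the Htt-null label, at 1.18 against 0.39. Of the INK4 genes, Cdkn2c (p18) was at 4.37, 3.13, 18.3 and 37.4 CPM, 4.17-fold and 11.9-fold higher. Cdkn2d (p19Ink4d) was at 12.3, 8.06, 27.0 and 25.2 CPM, 2.19-fold and 3.12-fold higher. Both RA-DIFF libraries exceeded both ESC libraries by over the limit for Cdkn2c and Cdkn2d.

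The neighbouring Cdkn2a and Cdkn2b, on chromosome 4, behaved differently. Cdkn2a (89274471 to 89294653, minus strand) was at 13.5, 13.6, 6.63 and 18.5 CPM, with both ESC libraries between the RA-DIFF libraries. Cdkn2b (p15; 89306289 to 89311032, minus strand) was at 4.42, 4.81, 2.58 and 7.22 CPM, again with ESC in between. Both were called lower in the wild-type label, at -1.02 and -0.77, and neither was called in the Htt-null label, at 0.44 and 0.58. The call of Cdkn2b is lost with library size alone (-0.73). With the RA-DIFF labels exchanged, neither was called against wild-type ESC and both were lower than in Htt-null ESC, at -1.03 and -0.89. A gene count does not separate p16Ink4a from p19Arf, the products of Cdkn2a. Cdkn3, a phosphatase that acts on CDKs, was at 16.9, 11.9, 12.7 and 17.1 CPM and was not called.

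Of the 8 E2Fs, none was called in all 4 pairs, where 27.4% of all genes were higher and 20.1% lower. E2f4, a repressor E2F that works with the pocket proteins, was the highest per length in ESC, at 44.7% and 52.0% of the summed E2F level in wild-type and Htt-null, and was at 31.6% and 25.2% in RA-DIFF. Its CPM was 187, 210.5, 120.3 and 91.9, log2 ratios of -0.64 and -1.20, and only the second is past the limit. E2f1, an activator E2F, was at 65.6, 55.0, 62.4 and 53.2 CPM and was not called in any comparison. E2f2 was at 25.6, 12.97, 33.5 and 27.1 CPM and was called higher in the Htt-null label, at 1.06 against 0.39. E2f3 was at 70.5, 57.9, 105.7 and 99.4 CPM, with log2 ratios of 0.58 and 0.78, and its call in the Htt-null label is lost with library size alone (0.71). E2f5, which overlaps a gene on the opposite strand, was at 59.1, 52.3, 55.6 and 65.3 CPM and was not called. E2f6 was at 50.2, 42.3, 71.0 and 76.5 CPM, called higher in the Htt-null label only. The atypical E2Fs repress without a DP partner: E2f7 was at 52.7, 40.7, 63.5 and 60.2 CPM and not called, and E2f8 was at 40.1, 38.5, 49.4 and 73.6 CPM, called higher in the Htt-null label at 0.93.

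The genes that these regulators control were examined as lists. In the wild-type label 33.9% of all genes were higher and 26.1% lower, and in the Htt-null label 34.3% and 24.8%. Of 24 DNA replication genes, 9 were lower and 1 higher in the wild-type label and 11 lower and 1 higher in the Htt-null label, with median log2 ratios of -0.41 and -0.52 beside 0.12 and 0.17 for all genes. The lowest was Orc1, a subunit of the origin recognition complex, at -2.52 and -2.54, and the highest Tk1, thymidine kinase, at 0.81 and 0.83. Of 24 mitosis genes, 10 were lower and 1 higher in the wild-type label and 7 lower and 1 higher in the Htt-null label, with medians of -0.66 and -0.36. Mybl2, a transcription factor of late cell-cycle genes, was the lowest at -2.82 and -3.28 and Foxm1, another, the highest at 0.76 and 1.08. In all 4 pairs, 8 of the 24 replication genes (33.3%) and 7 of the 24 mitosis genes (29.2%) were lower, against 20.1% of all genes.

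Partners and modulators had calls in both directions, set against the same shares of 33.9% higher and 26.1% lower in the wild-type label and 34.3% and 24.8% in the Htt-null label. Of the 5 pocket proteins and DP partners, which bind E2Fs, 3 were higher in the wild-type label and 1 in the Htt-null label; the highest were Tfdp1 at 1.75 in the wild-type label and Rb1 at 0.79 in the Htt-null label, and Tfdp2 was the lowest at 0.015 and -0.090. Of 14 CDK activators and modulators, 3 were higher and 4 lower in each label. The highest was Cdk5r1, the p35 activator of Cdk5, at 5.20 and 4.07, and the lowest Mnat1, a subunit of the CDK-activating kinase, at -1.497 and -1.11. Of 13 other cyclins, 2 were higher and 1 lower in the wild-type label and 1 higher and 2 lower in the Htt-null label, with Ccnj highest (1.80 and 1.47) and Ccnf lowest (-1.84 and -1.57). Of 15 p53 targets, 2 were higher (13.3%) and 7 lower (46.7%) in each label, with Btg2 highest (2.07) and Perp lowest (-2.46) in the wild-type label and Plk2 highest (1.94) and Bbc3 lowest (-2.30) in the Htt-null label.

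**Figure D4:**
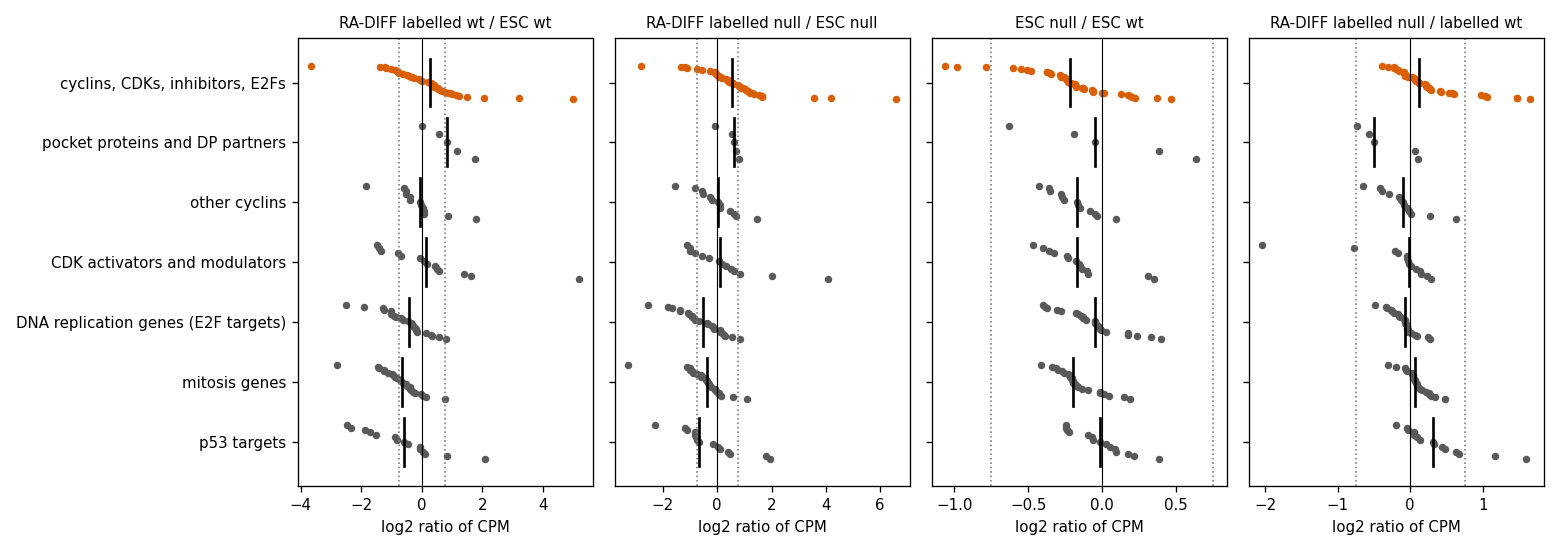
Log2 ratio of CPM in 4 comparisons for the 41 genes (orange) and for the genes of 6 lists (grey), one point a gene; black bars are medians and dotted lines the limits of 0.75. The replication and mitosis lists lie mostly below 0 in both comparisons of RA-DIFF with ESC, and no gene of these lists is past the limit between the genotype labels.

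Between the ESC genotypes, 3 of the 41 genes were called, all lower in Htt-null, that is 7.32% of them, against 3.47% of all genes lower and 5.14% higher. Ccnd2 was 15.2 CPM in Htt-null and 31.7 in wild-type, a log2 ratio of -1.06 (95% counting interval -1.17 to -0.96). E2f2 was 12.97 against 25.6 CPM, at -0.98 (-1.10 to -0.87). Cdkn1b was 62.0 against 107 CPM, at -0.79 (-0.84 to -0.74), and scaling by library size alone puts it inside the limit. None of the 3 calls was kept when edgeR's exact test at the assumed dispersion of 0.1 was added, and Ccnd2 alone was past a limit of 1. Of all ratios in this comparison, 33 of the 41 were below 0 and 8 above (34 and 7 with RLE scaling, 32 and 9 with library size alone), where 8476 of all 15492 genes were below 0 and 6941 above, with a median of -0.22 beside -0.035 for all genes tested. Of the 24 replication and 24 mitosis genes none was called, with medians of -0.049 and -0.20. Some markers of other cell types were called too: 6 of 12 fibroblast and mesenchyme markers were lower in Htt-null ESC and 1 higher (median -0.71), and 3 of 12 neuron markers were higher. Among these calls, Lum (1 and 0 counts in Htt-null and wild-type ESC), Dcn (0 and 10) and Dcx (8 and 5) had few reads. Of the neural progenitor markers Nes and Sox1 were higher (0.81 each) and Fabp7 lower, at 1 count in Htt-null and 4 in wild-type ESC. Lum, Dcn, Dcx and Fabp7 passed the expression limit through RA-DIFF, so their calls in ESC rest on a few reads. Of the 5 endothelium markers above the limit Kdr was higher (0.91). Tek (-0.56), Tie1 (-0.48), Pecam1 (0.24) and Emcn, at 0 counts in both, were not called. Of the endoderm markers Dab2 was lower (-0.94), and of the pluripotency genes Dppa5a was lower (-0.89). Fn1 was at 1173 CPM in Htt-null and 1290.0 in wild-type ESC. The other 11 fibroblast and mesenchyme markers summed to 37.5 CPM in Htt-null and 51.1 in wild-type ESC, with Dcn at 0 in the first and Lum in the second. The part of these cells in the differences of Ccnd2, E2f2 and Cdkn1b was not tested. These 3 genes share the Htt-null ESC library with the comparison of RA-DIFF and ESC in that label, where all 3 were called higher.

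**Figure D5:**
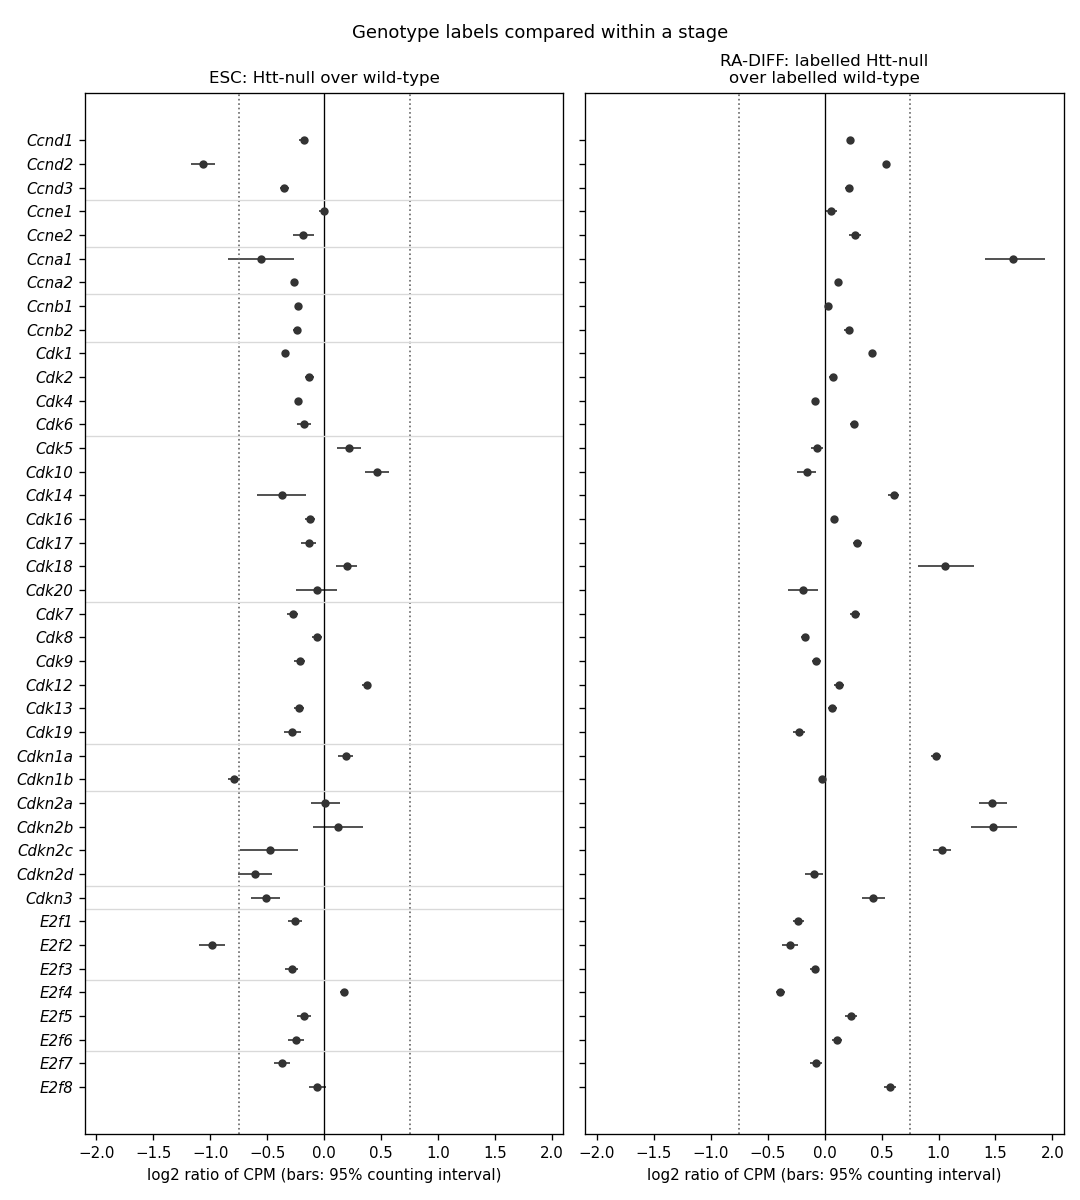
Log2 ratio of CPM of the 41 genes between the genotype labels, in ESC (left) and RA-DIFF (right); bars are 95% counting intervals and dotted lines the limits of 0.75. Ccnd2, E2f2 and Cdkn1b lie past the limit on the left and Ccna1, Cdk18, Cdkn1a, Cdkn2a, Cdkn2b and Cdkn2c on the right.

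Between the RA-DIFF libraries, 6 of the 41 genes were called, each higher under the Htt-null label, that is 14.6%, against 11.7% of all genes higher and 8.99% lower. They were Ccna1 at a log2 ratio of 1.66 (95% counting interval 1.41 to 1.94), Cdkn2b at 1.48 (1.29 to 1.69), Cdkn2a at 1.47 (1.35 to 1.602), Cdk18 at 1.05 (0.82 to 1.31), Cdkn2c at 1.03 (0.95 to 1.11) and Cdkn1a at 0.98 (0.93 to 1.02). With the exact test at the assumed dispersion of 0.1 added, Ccna1, Cdkn2a and Cdkn2b kept their calls and Cdk18, Cdkn1a and Cdkn2c did not, and a limit of 1 leaves out Cdkn1a. Of the 6 genes, 4 encode CDK inhibitors, from the 7 inhibitors tested. The inhibitors not called, Cdkn1b, Cdkn2d and Cdkn3, had ratios of -0.02, -0.095 and 0.43. Of the 15 p53 targets 2 were higher (13.3%) and none lower, with Perp highest at 1.599, and no replication or mitosis gene was called. Of the CDK modulators 2 were lower, with the neuronal Cdk5 activator Cdk5r2 lowest at -2.04. With the labels exchanged all of these ratios turn sign.

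The RA-DIFF libraries also differed in cell type markers. In the library labelled Htt-null 11 of 12 fibroblast and mesenchyme markers were higher than in the library labelled wild-type, with summed levels of 2818 and 717.8 CPM, or 2447 and 625.0 without Fn1. Against ESC of the same label, 11 and 10 of the 12 were higher and Fn1 was lower; none was at 0 in RA-DIFF. Of 12 neuron markers 9 were lower in the library labelled Htt-null than in that labelled wild-type, at 1435 against 3033 CPM summed and 334.4 and 294.3 in Htt-null and wild-type ESC. Of the endothelium markers above the limit 3 of 5 were higher and Pecam1 lower, with Kdr at 71.7 against 17.95 CPM and the other 5 of the list at 16.9 against 5.98 CPM summed. Of the endoderm markers 2 of 5 were higher, Dab2 at 42.8 against 12.3 CPM and Foxa2 at 12.3 against 1.88 CPM, while Gata4, Gata6 and Sox17 were not called. Of the 10 pluripotency genes 8 were lower (median -2.42), and without Sox2 the other 9 summed to 17.4 against 64.1 CPM. Of 9 neural progenitor markers 2 were higher (Vim and Slc1a3) and 3 lower (Pax6, Sox1 and Hes5), at 6183 against 4649 CPM summed. The part of these cells in the differences of Cdkn1a, Cdkn2a, Cdkn2b, Cdkn2c, Ccna1 and Cdk18 was not tested.

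The small RNA libraries of these conditions held 11976744, 12888905, 24290346 and 25656673 miRNA counts in Htt-null ESC, wild-type ESC and RA-DIFF labelled Htt-null and wild-type. A miRNA represses mRNAs that pair with its seed, bases 2 to 8, and the miR-290 to miR-295 cluster is known for promoting the G1 to S transition of ESC. Its 17 miRNAs made up 24.9% and 20.05% of miRNA counts in wild-type and Htt-null ESC and 0.198% and 0.354% in RA-DIFF labelled wild-type and Htt-null. The log2 ratio of their summed level was -6.97 and -5.82, and with TMM scaling of the small RNA libraries -5.81 and -3.95. The most abundant members with the shared seed AAGUGCU (capitals) are shown with 2 miRNAs of the miR-302 family that carry it.
mmu-miR-295-3p: aAAGUGCUacuacuuuugagucu
mmu-miR-294-3p: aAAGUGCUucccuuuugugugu
mmu-miR-291a-3p: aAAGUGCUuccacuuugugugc
mmu-miR-302b-3p: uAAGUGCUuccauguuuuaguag
mmu-miR-302d-3p: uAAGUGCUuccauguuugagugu
miR-295-3p alone went from 138800 and 107900 CPM of miRNA counts in wild-type and Htt-null ESC to 1060 and 1842 CPM in RA-DIFF labelled wild-type and Htt-null. The miR-302 and miR-367 family was far less abundant, at most 0.0677% of miRNA counts, and its log2 ratio was 0.85 in the wild-type label and -2.60 in the Htt-null label, or 2.02 and -0.72 with TMM scaling.

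The letters opposite this seed, AGCACTT, were looked for in the 3′ UTR of each gene (1 transcript a gene, that with the longest 3′ UTR, GENCODE vM21 on GRCm38). They were present in 10 of the 43 genes (23.3%) and in 14.7% of all 21037 genes with a 3′ UTR. A longer UTR is more likely to hold these letters, and UTR length was not matched between the groups. The 10 genes were Ccnd1, Ccnd2, Cdk4, Cdk6, Cdk13, Cdk19, Cdkn1a, E2f2, E2f5 and E2f7. Ccnd2, Cdk4 and Cdk6, which were higher in all 4 pairs, are among them, that is 3 of the 10, where 27.4% of all genes were higher in all 4 pairs. Cdk13, Cdk19, E2f5 and E2f7 were not called in any comparison. The first sites of Ccnd2, Cdk4 and Cdk6 are shown with the paired letters in capitals. So are those of Ccnd1, Cdkn1a and E2f2, which were called higher in the Htt-null label.
Ccnd2, chr6:127129330-127129358, minus strand: tccattagaaaAGCACTTtgaaaattttg
Cdk4, chr10:127067551-127067579, plus strand: aatgcttgccgAGCACTTgtgaggccctg
Cdk6, chr5:3521841-3521869, plus strand: tctcaaccaccAGCACTTctaattcattt
Ccnd1, chr7:144931666-144931694, minus strand: ttccatttcaaAGCACTTttggtcagcta
Cdkn1a, chr17:29099817-29099845, plus strand: cagacctgaatAGCACTTtggaaaaatga
E2f2, chr4:136193328-136193356, plus strand: ctttttcaagaAGCACTTaacgcctttgt
In Ccnd1, Ccnd2, Cdkn1a and E2f5 the site overlaps that of the miR-17 family (GCACTTT), shifted by 1 base. In E2f2 a later site, not shown, does so. A match of these letters is a description and does not show pairing.

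Other miRNA families with targets among G1 regulators had smaller ratios under TMM scaling than the miR-290 to miR-295 family, and the sign depended on the scaling for the miR-17, let-7 and miR-34 families, each in 1 of the labels. The miR-15 and miR-16 family, whose site TGCTGCT is in 14 of the 43 genes (32.6% against 20.3% of all), had log2 ratios of -1.93 and -2.86, or -0.76 and -0.99 with TMM scaling. The miR-17 family was at -0.97 and -2.09, or 0.19 and -0.21 with TMM; its site was in 9 genes (20.9% against 11.8%). The let-7 family was at -1.24 and -0.49, or -0.080 and 1.38 with TMM; its site CTACCTC was in 7 genes (16.3% against 9.02%). The miR-34 family was at -0.94 and -1.92, or 0.23 and -0.046 with TMM, and its site CACTGCC was also in 7 genes (16.3% against 14.3%). UTR length was not matched for any of these shares.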

How the data were processed

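Poly-A-plus RNA (strand-specific dUTP libraries, 50 bp paired-end reads) and small RNA were sequenced from 4 conditions, with 1 library each. The authors deposited raw counts per gene: reads were aligned with TopHat 2.0.14 to GRCm38.p4, guided by GENCODE release 6, and counted with HTSeq 0.6.1 in intersection-nonempty mode. The strand setting of the counting is not given in the sources used here beyond the use of default options. A protein-coding gene on the opposite strand overlaps 7 of the 43 genes over part of their span, and their counts depend on this setting. Other genes on the opposite strand, with at most 35 counts in a library, overlap Ccnd2, Cdk6, Cdk12, Cdk13, Cdk18, Cdk19, E2f3, E2f7 and E2f8. Small RNA reads of 16 to 25 bases were trimmed with cutadapt 1.3, mapped with BWA 0.7.5a-r418 to miRBase 21 with 1 difference allowed, and deposited as counts of uniquely mapped reads (SAMtools 0.1.18). All columns were assigned by name.

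TMM factors (0.976 to 1.03), log2 CPM with a prior count of 2 and average log2 CPM were computed with edgeR 4.0.16 in R 4.3.3; the rest with Python 3.11.15, pandas 2.3.3, scipy 1.17.1 and matplotlib 3.10.9. miRNA families were summed as CPM of all miRNA counts. A floor of 3 counts is 0.0268 to 0.0460 CPM. Intervals on ratios are Clopper-Pearson intervals at the 95% level. A model with 1 term per condition leaves no residual degrees of freedom, and models that pool the genotypes or stages were not fitted. The fold limit of 0.75 and the expression limit are those of the study. Exon lengths and UTRs come from GENCODE vM21, promoters and mature miRNAs from RefSeq. The calling step was tested on simulated data. The genes and lists were chosen with earlier results of these data known. Values in every library were given for genes called in all 4 pairs or between genotype labels and for the main cyclins, CDKs, inhibitors and E2Fs; of each list the genes with the highest and lowest ratio were named. The alternatives were other scalings, prior counts, limits, an assumed dispersion and exchanged RA-DIFF labels.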

Additional observations from a re-analysis of the deposited data

Results flagged for a closer look

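Ccna1 was called in opposite directions in the comparisons of RA-DIFF with ESC: its log2 ratio was -1.19 in the wild-type label and 1.01 in the Htt-null label. The difference between these ratios was not tested, since each condition has 1 library. Its levels were low, between 1.46 and 4.66 CPM. With the RA-DIFF labels exchanged the ratios were 0.46 against wild-type ESC and -0.64 against Htt-null ESC, again of opposite sign but inside the limit of 0.75.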

How the results depend on the processing

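The labels carry no replicate numbers, so no replicate block was fitted. A model of stage plus genotype, which would pair the stages within each label and leave 1 residual degree of freedom, was not fitted either. With 1 library per condition no library was left out in turn. A fold limit of 1 in place of 0.75 called 11 genes between RA-DIFF and ESC in the wild-type label, 8 in all 4 pairs and 1 between the ESC genotypes. Adding edgeR's exact test at the assumed dispersion of 0.1 kept 6 and 9 genes in the wild-type and Htt-null labels, 0 between the ESC genotypes and 3 between the RA-DIFF libraries, and at 0.01 it kept all calls. Without the expression limit, 5 genes were called between the ESC genotypes, the added ones being Ccnb3 and Cdk15 at under 1 CPM. The median log2 ratio of the genes in the wild-type label was 0.22 with RLE and 0.34 with exchanged labels; in the Htt-null label it was 0.46 with library size alone, 0.44 without the expression limit and 0.23 with exchanged labels; between the RA-DIFF libraries it was 0.062 with library size alone. The smaller prior count changed no call.

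With the RA-DIFF labels exchanged, Ccna1, Cdkn2a and Cdkn2b turned to 0.46, 0.45 and 0.71 against wild-type ESC, and Ccna1 to -0.64 against Htt-null ESC. By longest transcript, Ccnd1 held 51.1%, 47.2%, 19.6% and 22.6% of the D-type cyclins in Htt-null ESC, wild-type ESC and RA-DIFF labelled Htt-null and wild-type, and Ccnd3 held 45.6%, 47.3%, 10.6% and 12.4%, with Ccnd2 at 5.57% in wild-type ESC. With TMM in place of library size, the log2 ratios in the wild-type and Htt-null labels were -5.81 and -3.95 for miR-290 to miR-295, 2.02 and -0.72 for miR-302 and miR-367, -0.080 and 1.38 for let-7, -0.76 and -0.99 for miR-15 and miR-16, 0.19 and -0.21 for the miR-17 family and 0.23 and -0.046 for miR-34. Among the 41 genes the 95% counting interval of a ratio was wider than 0.4 on the log2 scale, in at least 1 comparison, for Ccna1, Cdkn2c, Cdk18, Cdkn2b and Cdk14; the spread between cultures is unknown.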
